A study of Mus musculus with 24 samples.

Results

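The JAK-STAT pathway genes examined here are the kinase gene Jak2, the transcription factor genes Stat2, Stat3, Stat4 and Stat6, and the inhibitor genes Socs1, Socs2, Socs3 and Cish. The 9 genes are a chosen set from these families, picked by name with earlier results of these arrays known, and all 9 were among the 17097 genes measured in mouse spinal cord with Affymetrix GeneChips. Each gene was read by the probe set that carries its symbol alone and has the highest mean over the 24 arrays. Levels are log2 values made by RMA, a method that subtracts background, gives all arrays a shared distribution and merges the probes of each set into 1 value, so a difference of 1 is a 2-fold change.

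The arrays came from 5 groups of mice, with 1 array per mouse. Wild-type mice were naive (5 arrays), recipients of Th1 cells (5) or recipients of Th17 cells (5), and mice labelled Act1 ko were naive (5) or recipients of Th17 cells (4). Act1 is the adaptor protein of the IL-17 receptor. According to the labels and the methods, recipients got 500 rad of irradiation and then T cells specific for the myelin peptide MOG35-55, cultured with IL-12 and an antibody to IL-23 for Th1 or with IL-23 for Th17, which gives experimental autoimmune encephalomyelitis (EAE). The mice were female and 8 to 12 weeks old by the methods, which put the end of the experiment at 12 days after transfer. The labels place collection at the start of symptoms, whereas the series design names the peak of disease. Naive mice were neither irradiated nor injected, so in each comparison with naive mice the irradiation, the transferred cells and the disease cannot be told apart. The sources used here do not describe the Act1 allele.

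Cytokine receptors without enzyme activity of their own carry JAK kinases, which phosphorylate STAT factors once the ligand binds. The STATs then enter the nucleus and switch on target genes, among them the SOCS genes, whose products bind the receptors or kinases and close the loop. STAT4 acts behind the IL-12 receptor in Th1 cells, STAT3 behind the receptors of IL-6, IL-23 and related cytokines, STAT6 behind those of IL-4 and IL-13, and STAT2 with IRF9 behind the type I interferon receptor. In the inflamed spinal cord, both infiltrating leukocytes and resident glia use these factors. Spinal cord RNA pools all of these cells, and a lower level in it can come from fewer cells of a type or from less RNA per cell, which cannot be told apart.

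STAT factors bind short words in DNA, so the sequence around the start of each gene is shown where it holds one of 3 such words. The words searched were TTCNNNGAA, the form most STATs bind, TTCNNNNGAA, the wider form that STAT6 prefers, and GAAANNGAAA, the core of the interferon response element bound by STAT2 with IRF9 and by other IRF factors. Windows of 300 bases, 250 before and 50 from the annotated start, were taken from RefSeq (GRCm38.p6) for 8 of the 9 members, with 2 starts for Stat4. Both strands were read, and the first 2 words read the same on either strand. TTCNNNGAA was present in 8.3% of all 32851 windows, TTCNNNNGAA in 6.95% and GAAANNGAAA in 3.44%. The stretches below hold the matches in capitals, each read 5′ to 3′ along the gene.
Stat2 (chr10:128270256-128270317, plus strand): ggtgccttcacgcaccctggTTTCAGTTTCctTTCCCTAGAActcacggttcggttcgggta
Stat4, second start (chr1:52008123-52008172, plus strand): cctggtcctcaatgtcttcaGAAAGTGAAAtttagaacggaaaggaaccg
Socs1 (chr16:10785584-10785639, minus strand): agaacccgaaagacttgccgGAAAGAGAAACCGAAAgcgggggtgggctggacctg
Socs3 (chr11:117969492-117969540, minus strand): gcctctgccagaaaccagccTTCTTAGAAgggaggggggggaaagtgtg
Cish (chr9:107296659-107296678, plus strand): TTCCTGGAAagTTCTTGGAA
Socs3 held 1 match to TTCNNNGAA, which begins 154 bases before its start. Cish held 2 matches to the same word in its first 20 transcribed bases, beginning at bases 1 and 12. Socs1 held 2 overlapping matches to GAAANNGAAA, beginning 83 and 77 bases before the start. Stat2 held 1 match to GAAANNGAAA on the opposite strand, 222 bases before its start, and 1 match to TTCNNNNGAA at 210 bases before. The second Stat4 start held GAAANNGAAA at 97 bases before it. The windows of Jak2, Stat3, Stat6 and the first Stat4 start held none of the 3 words. A match shows only that the letters are present, and binding was not measured here.

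**Figure D1:**
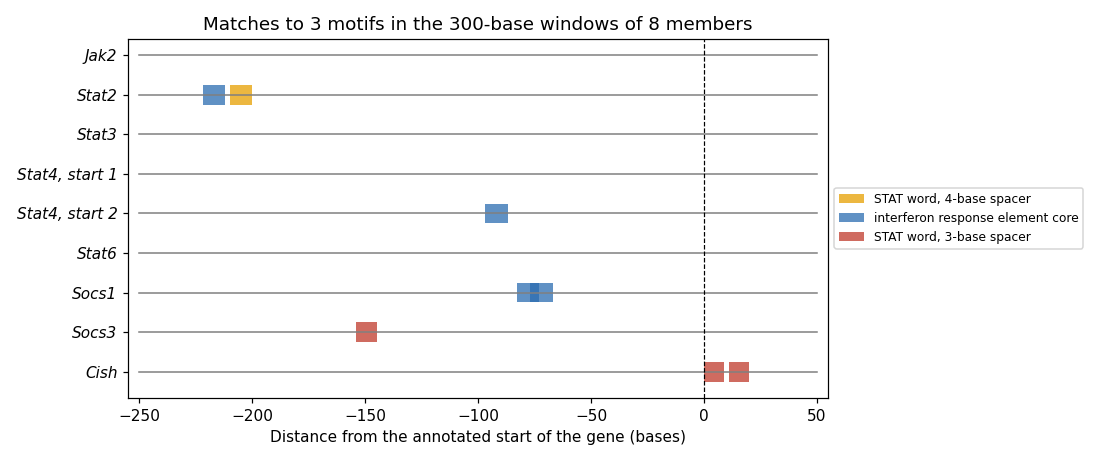
Matches to the 3 words (coloured boxes) in the 300-base windows of 8 members, plotted by distance in bases from the annotated start of the gene (dashed line). The Cish matches lie in the first 20 transcribed bases, and those of Stat2, Stat4, Socs1 and Socs3 lie before the start.

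Before the members were compared, the labels and the arrays were checked. The probe set of Traf3ip2, which encodes Act1, read 5.38 to 5.92 in the naive mice labelled Act1 ko and 4.07 to 4.60 in naive wild-type mice, that is 1.27 higher (SE 0.11, adjusted p = 4.66e-08). A probe set higher in the arrays labelled ko does not check a deletion, since the position of its probes relative to the deleted part is not given in the sources used here. Markers of neurons (6 measured, mean level per array 10.23 to 11.08 over all arrays) and oligodendrocytes (6 measured, 10.10 to 10.89) were high in each group. Markers of T cells, monocytes and macrophages, and neutrophils were near the bottom of the scale in naive mice, and B cell markers stayed at 2.68 to 3.04 in all arrays. Array medians over all 45118 probe sets lay between 3.46 and 3.57. The naive wild-type means of Stat4, Stat6, Socs1, Socs3 and Cish were below these medians. At such levels a fold over naive mice is a lower limit. Th1 recipients 4 and 5 had lower T cell markers (5.32 and 5.41) than the other 3 Th1 recipients (5.70 to 5.89) and lower neutrophil markers (3.95 and 3.97 against 4.26 to 4.87).

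Each of the 9 members was higher in the spinal cord of wild-type Th17 recipients than of naive wild-type mice. Socs3 rose most, by 4.70 (26.1-fold), followed by Stat2 (2.59), Socs2 (2.21) and Cish (1.97), and the smallest rise on these probe sets was that of Jak2, by 1.13. In each of the 9, all Th17 recipients lay above all naive mice. Over all genes, 43.5% were called in this comparison, 18.0% as higher, and in 15.0% the groups did not overlap with Th17 recipients higher. The median difference of the members was 1.85, against -0.05 over all genes. The members were picked with earlier results of these arrays known, so such figures describe the set and do not test it. The 9 other JAK, STAT and SOCS genes measured, given below, had a median of 0.21.

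Jak2 encodes the kinase used by the receptors of IFN-γ, IL-12, IL-23, GM-CSF and growth hormone. Its level was 6.52 to 7.07 in naive wild-type mice, 7.30 to 7.92 in Th1 recipients and 7.71 to 8.19 in Th17 recipients. The difference from naive mice was 1.13 ± 0.13 (SE; 2.19-fold, adjusted p = 9.29e-08) after Th17 transfer and 0.87 ± 0.13 (1.83-fold, adjusted p = 6.54e-06) after Th1 transfer. A second Jak2 probe set gave 1.05 and 0.69. On the probe sets used, Jak2 had the smallest rise and was the only member under 2-fold in Th1 recipients. That order depends on the probe sets: with the mean of all probe sets of a gene, the rises with Th17 and Th1 cells were 0.85 and 0.74 for Stat3, 1.03 and 0.84 for Socs2 and 1.09 and 0.78 for Jak2, and all were still called.

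Stat2 encodes the factor that joins IRF9 in the type I interferon response. The 5 naive wild-type arrays read 5.11, 5.08, 4.71, 4.86 and 4.68. Those of Th1 recipients read 7.91, 7.14, 7.12, 6.70 and 7.47, and those of Th17 recipients 7.53, 7.19, 7.40, 7.37 and 7.89. Both recipient groups lay well above naive mice and overlapped each other. The rise was 2.59 ± 0.16 (6.02-fold, adjusted p = 1.68e-13) after Th17 transfer and 2.38 ± 0.16 (5.21-fold, adjusted p = 1.11e-12) after Th1 transfer. A second, dimmer Stat2 probe set gave 3.20 and 2.80.

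Stat3 encodes the factor behind IL-6 and IL-23 signalling, which Th17 cells need to form. Naive wild-type arrays read 7.58, 7.47, 7.46, 7.63 and 7.66. Th1 recipients read 8.94, 8.85, 8.75, 8.70 and 8.77, and Th17 recipients 8.82, 9.23, 9.02, 9.14 and 9.26. The recipient groups overlapped through Th17 recipient 1, the lowest of its group. Stat3 rose by 1.53 ± 0.09 (2.89-fold, adjusted p = 1.24e-13) with Th17 cells and by 1.24 ± 0.09 (2.36-fold, adjusted p = 1.18e-11) with Th1 cells. A second Stat3 probe set with a mean level of only 3.27 gave 0.16 and 0.24, and the first of these did not pass the test (adjusted p = 0.11 over all named probe sets).

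Stat4 encodes the factor that IL-12 activates in Th1 cells. Its arrays read 2.42 to 2.62 in naive wild-type mice, 3.42 to 4.21 in Th1 recipients and 3.87 to 4.11 in Th17 recipients. The rise was 1.53 ± 0.10 (2.89-fold, adjusted p = 5.81e-13) in Th17 recipients and 1.30 ± 0.10 (2.47-fold, adjusted p = 1.91e-11) in Th1 recipients. The spread of the Th1 recipients (range 0.78) was wider than that of the Th17 recipients (0.24), with Th1 recipient 2 the highest and 4 the lowest.

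Stat6 encodes the factor behind IL-4 and IL-13. Its arrays read 3.14 to 3.34 in naive wild-type mice, 4.25 to 5.36 in Th1 recipients and 4.44 to 5.49 in Th17 recipients, and neither recipient group touched the naive one. It rose by 1.85 ± 0.17 (3.62-fold, adjusted p = 9.83e-10) with Th17 cells and by 1.72 ± 0.17 (3.30-fold, adjusted p = 4.59e-09) with Th1 cells. Th1 recipients 4 and 5 averaged 4.54 and the other 3 averaged 5.19.

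Socs1 encodes an inhibitor of the JAK kinases that restrains IFN-γ signalling. Naive wild-type arrays read 2.70, 2.62, 2.87, 2.83 and 2.86. Th1 recipients read 3.51, 4.71, 4.19, 3.69 and 3.63, and Th17 recipients 4.26, 3.78, 4.29, 4.74 and 4.75. Th1 recipients 2 and 3 reached the range of the Th17 recipients, while the other 3 lay below it. Socs1 rose by 1.59 ± 0.17 (3.02-fold, adjusted p = 2.15e-08) with Th17 cells and by 1.17 ± 0.17 (2.26-fold, adjusted p = 3.61e-06) with Th1 cells.

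Socs3 encodes the inhibitor that binds the gp130 chain of the IL-6 receptor family, and it is itself a target of STAT3. Naive wild-type arrays read 2.79, 3.01, 2.90, 2.96 and 2.75. Th1 recipients read 6.92, 5.89, 6.26, 6.44 and 6.48, and Th17 recipients 7.58, 7.54, 7.46, 7.46 and 7.89. No naive array came near a recipient array, and no Th1 recipient reached the lowest Th17 recipient. The rise was 4.70 ± 0.14 (26.1-fold, adjusted p = 1.48e-20) with Th17 cells and 3.51 ± 0.14 (11.4-fold, adjusted p = 9.79e-18) with Th1 cells.

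Cish and Socs2 encode inhibitors that STAT5 induces, and SOCS2 is known for limiting growth hormone signalling. Cish read 3.09 to 3.65 in naive wild-type mice, 4.80 to 5.39 in Th1 recipients and 5.10 to 5.30 in Th17 recipients. It rose by 1.97 ± 0.10 (3.92-fold, adjusted p = 2.53e-15) with Th17 cells and by 1.93 ± 0.10 (3.80-fold, adjusted p = 4.52e-15) with Th1 cells, the closest pair of values among the members. Socs2 read 3.72 to 4.74 in naive wild-type mice, 5.42 to 6.77 in Th1 recipients and 6.03 to 6.63 in Th17 recipients. It rose by 2.21 ± 0.23 (4.63-fold, adjusted p = 9.31e-09) and 2.01 ± 0.23 (4.03-fold, adjusted p = 6.03e-08). Th1 recipients 4 and 5 averaged 5.62 on Socs2 and the other 3 averaged 6.55. Of the 3 other Socs2 probe sets, 1 gave a like rise (2.05 and 1.73) and the other 2 did not rise: they gave -0.11 and -0.05 with Th17 cells, and -0.31 (adjusted p = 0.0184) and -0.08 with Th1 cells.

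**Figure D2:**
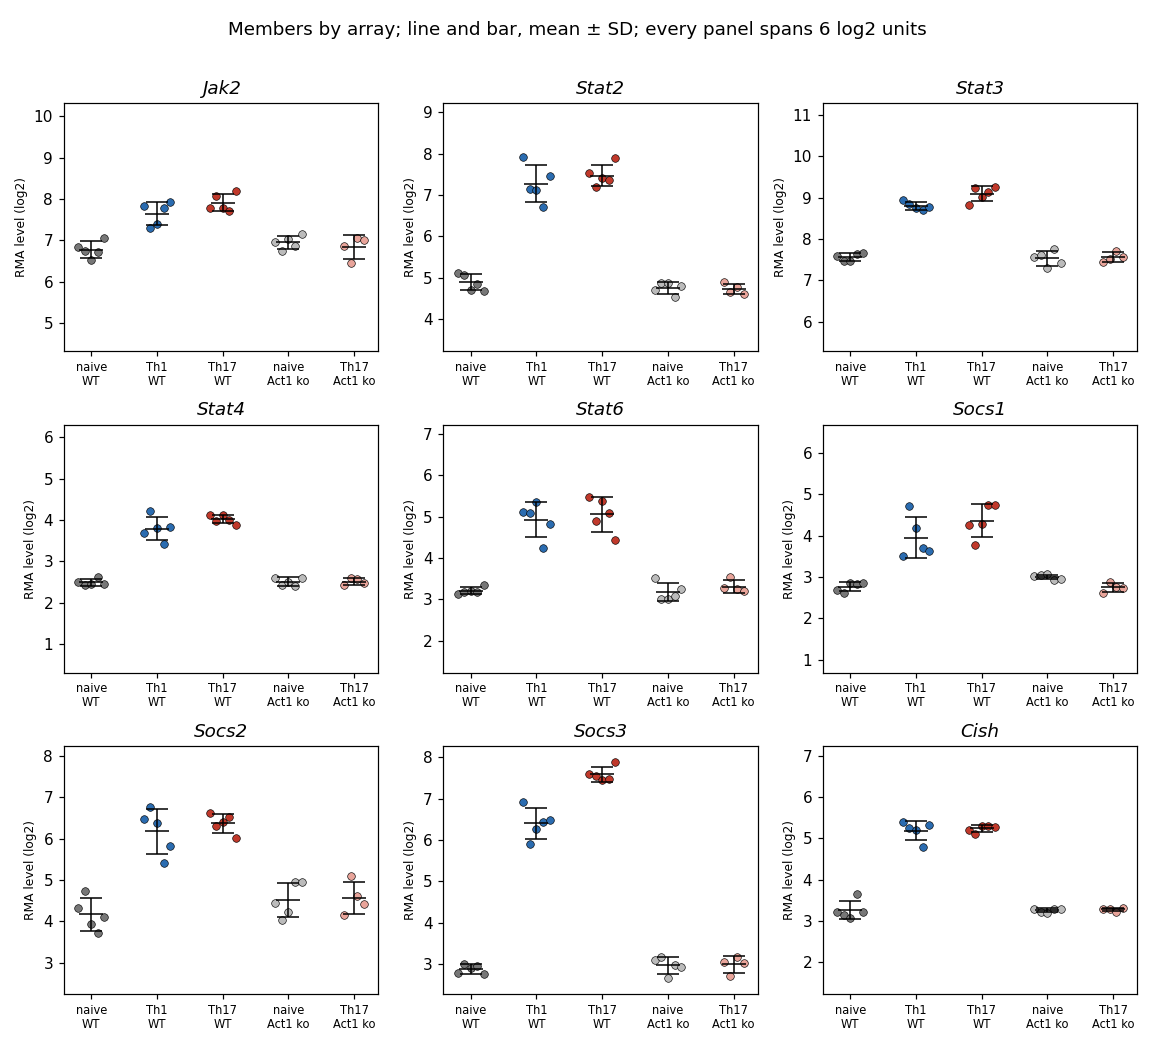
RMA levels (log2) of the 9 members in every array, by group, with the mean and SD of each group; each panel spans 6 log2 units. Both wild-type recipient groups lie above the naive group in each panel, the mice labelled Act1 ko that received Th17 cells lie near the naive mice, and on Socs3 all Th17 recipients lie above all Th1 recipients.

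In Th1 recipients, too, all 9 members rose, from 0.87 (Jak2) to 3.51 (Socs3) with a median of 1.72 against -0.06 over all genes. Of all genes 40.8% were called in this comparison and 16.7% were called higher. None of the 9 overlapped with naive mice, which held, with recipients higher, for 14.1% of all genes. Both comparisons use the same 5 naive arrays, so their likeness is not independent. Each title holds a code with a letter and a number, called row and column here, whose meaning the labels do not give. Within rows, each member exceeded its naive level in 4 of 4 rows after Th17 transfer and in 3 of 3 rows after Th1 transfer. These counts follow from the lack of overlap and add no support. No column held both Th1 recipients and naive wild-type mice, so column and Th1 transfer cannot be told apart there. RMA fixes the array scale, and the values depend on it. Centring each array on the median of its 17097 gene values moved the median gene by -0.26 in Th17 and -0.25 in Th1 recipients. Centring the arrays on 62 ribosomal protein genes moved it by -0.44 and -0.50. Relative to the latter all 9 members still rose, by 0.69 to 4.27 and by 0.37 to 3.01. The split of all calls in Th17 recipients went from 3069 higher and 4367 lower to 2124 and 11213 after centring on the median and to 1655 and 13379 after centring on ribosomal protein genes, and in Th1 recipients from 2854 and 4115 to 1977 and 11307 and to 1411 and 13972.

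The markers of infiltrating cells moved with the members. T cell markers (7 of 8 measured) averaged 2.92 to 3.04 in naive wild-type arrays, 5.32 to 5.89 in Th1 recipients and 5.75 to 6.01 in Th17 recipients, and all 7 rose in both. Monocyte and macrophage markers (7 of 8 measured) averaged 3.25 to 3.29, 7.45 to 7.97 and 8.01 to 8.37, and all 7 rose in both. Neutrophil markers (8 of 9 measured) averaged 3.07 to 3.61, 3.95 to 4.87 and 5.30 to 5.87, with 6 of 8 higher in Th17 recipients and 4 of 8 in Th1 recipients. All 6 oligodendrocyte and all 6 neuron markers fell in both, with median differences of -0.50 and -0.73 in Th17 recipients. Of the 7 astrocyte markers 4 rose and 2 fell in Th17 recipients, and of the 5 microglia markers 2 rose and 3 fell. The part of the infiltrate in the rise of the members was not tested.

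The other genes of the families were read as a list. Of the 9 other JAK, STAT and SOCS genes measured of 10 listed, 4 rose, 1 fell and 4 did not pass the test in Th17 recipients, with a median of 0.21. Stat5a, a factor behind IL-2 and GM-CSF, rose by 1.17 (SE 0.09, adjusted p = 7.27e-11), Jak3, the kinase of the common gamma chain, by 1.99 (SE 0.16, adjusted p = 7.94e-11) and Tyk2, a kinase of the interferon and IL-12 receptors, by 1.35 (SE 0.14, adjusted p = 9.99e-09). Socs5, a SOCS family member, fell by 0.55 (SE 0.09, adjusted p = 8.23e-06). In Th1 recipients 5 rose and 1 fell. After centring on ribosomal protein genes these counts were 3 higher and 3 lower in Th17 recipients and 3 and 4 in Th1 recipients.

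Inhibitors outside the SOCS family were read next. Of 11 listed and measured, 6 rose, 2 fell and 3 did not pass the test in both recipient groups, with medians of 0.59 and 0.54. Usp18, which blocks the type I interferon receptor, rose by 5.02 (SE 0.18), and Ptpn6, the phosphatase SHP-1 of blood cells, by 4.80 (SE 0.12). Ptpn1 and Ptpn2, phosphatases that act on JAKs, rose by 2.25 and 1.08. Pias2, a SUMO ligase, fell by 0.62, and Ptpn11, the phosphatase SHP-2, fell by 0.23. After centring on ribosomal protein genes 5 were higher and 5 lower in Th17 recipients.

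Receptor chains rose broadly. Of 22 measured of 28 listed, 17 rose and 2 fell in Th17 recipients, with a median of 1.25, and 16 rose and 2 fell in Th1 recipients, with a median of 1.14. In Th17 recipients the chains with the smallest adjusted p were Csf2rb, the shared chain of the GM-CSF receptor (5.55), Osmr, the oncostatin M receptor (3.59), Il13ra1, a chain of the IL-13 receptor (2.23), and Ifnar2, a chain of the type I interferon receptor (2.03). Ghr, the growth hormone receptor, fell by 0.72 and Lifr, the LIF receptor, fell by 0.20. Ligands were mostly at the bottom of the scale: of 17 measured of 21 listed, 4 rose in Th17 recipients (Ifng 1.32, Il6 1.31, Csf2 0.97 and Il2 0.23) and 3 in Th1 recipients, and none fell. After centring on ribosomal protein genes 15 receptor chains were higher and 5 lower in Th17 recipients, and 3 ligands were higher and 12 lower.

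Genes that each STAT is known to switch on were then read, as lists set for this report with earlier results of these arrays known. All 10 measured targets of STAT2 with IRF9 rose in both recipient groups, with medians of 3.71 and 3.49. They included Ifit1 (5.89 in Th17 recipients), Irf7 (5.68), Rsad2 (5.68) and Ifit3 (4.68). All 9 STAT3 targets rose in both, with medians of 3.84 and 2.38, among them Lcn2, which encodes lipocalin 2 (8.97), Timp1, an inhibitor of matrix proteases (7.51), Cebpd (4.76) and Osmr (3.59) in Th17 recipients. Of the 8 STAT4 targets 7 rose in Th17 recipients and 8 in Th1 recipients, with medians of 1.41 and 1.21. The STAT4 targets with the smallest adjusted p in Th17 recipients were Il18rap (2.69), Hlx (1.34), Il18r1 (2.38) and Ifng (1.32). The 5 measured STAT5 targets had small differences: 4 rose in each recipient group, with medians of 0.47 and 0.46, and only 1 was called higher in each after centring on ribosomal protein genes. Of the 9 STAT6 targets 6 rose in each group and 3 did not pass the test. In Th17 recipients Arg1 (8.36) and Chil3 (8.35) were far ahead of Mrc1 (1.89), Ccl17 (1.82), Ccl22 (0.89) and Pdcd1lg2 (0.68). Retnla (0.10), Ccl24 (0.41) and Fcer2a (0) were those that did not pass. None of the listed targets fell in these comparisons except after centring on ribosomal protein genes, when 1 STAT4 target in each group and 2 or 3 STAT6 targets were lower.

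**Figure D3:**
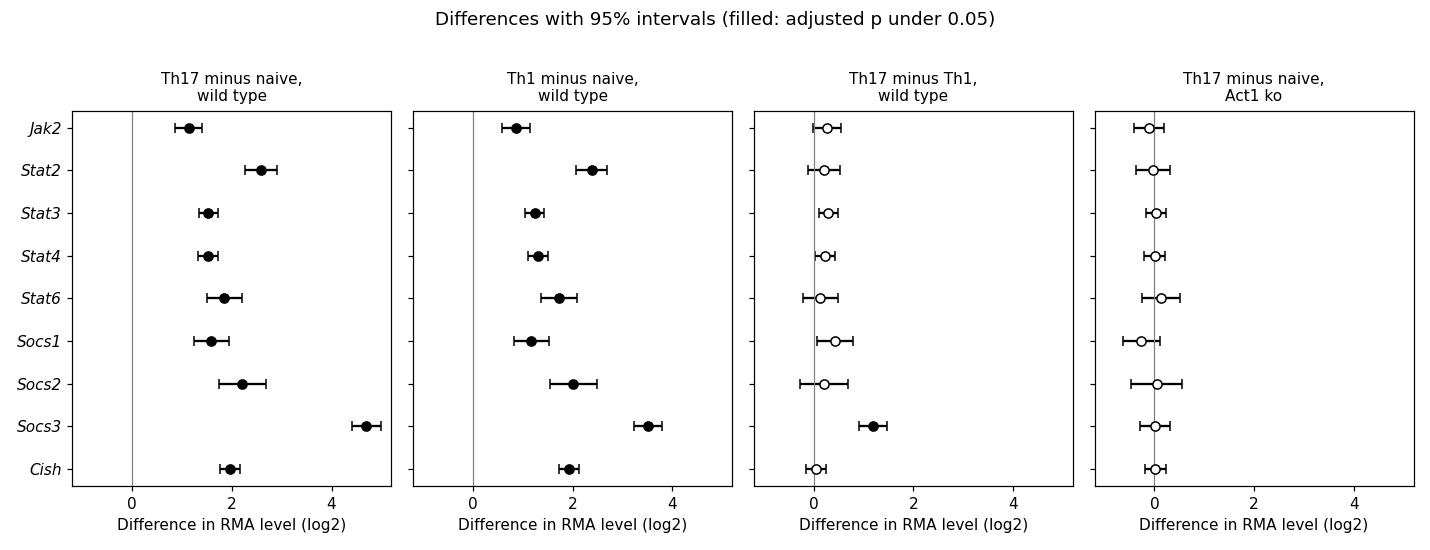
Differences in RMA level (log2, points) with 95% intervals (bars) for the 9 members in 4 comparisons, filled where the adjusted p is under 0.05. All 9 are filled for Th17 and for Th1 recipients against naive wild-type mice, Socs3 alone for Th17 against Th1 recipients, and none in the mice labelled Act1 ko.

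Th17 and Th1 recipients differed in 1 member, Socs3, which was 1.19 ± 0.14 (SE) higher in Th17 recipients (2.28-fold, 95% interval 0.91 to 1.47, adjusted p = 2.4e-06). All 5 Th17 recipients lay above all 5 Th1 recipients, which gives an exact permutation p of 0.00794, the smallest that 5 against 5 allows. Of all genes 3.00% were called in this comparison and 1.91% were called higher, and 1.93% had Th17 recipients above Th1 recipients without overlap. Socs3 ranked 43 among all genes by the size of this difference. It was higher in Th17 recipients in 3 of 3 rows of the sample code, by 0.62 to 1.33, a direction already set by the lack of overlap. No column of that code held both groups, so column and type of T cell cannot be told apart here. Without Th1 recipients 4 and 5 the difference was 1.23 (adjusted p = 3.41e-05). Neutrophil markers also separated these groups, at 5.30 to 5.87 against 3.95 to 4.87, with 5 of 8 called higher, as did monocyte and macrophage markers, at 8.01 to 8.37 against 7.45 to 7.97, with 5 of 7 called higher. Without Th1 recipients 4 and 5, 6 of 8 neutrophil markers and 3 of 7 monocyte and macrophage markers were called higher. Their part in the Socs3 difference was not tested.

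The other 8 members did not pass the test between Th17 and Th1 recipients. Their differences ran from 0.04 (Cish, 95% interval -0.16 to 0.25) to 0.42 (Socs1, 0.06 to 0.78), all with Th17 recipients higher, and the upper limits of all 8 intervals were at or below 0.78. At an unadjusted limma p under 0.05 there were 4 members, namely Socs3, Stat3 (0.29, adjusted p = 0.0959), Socs1 (adjusted p = 0.284) and Stat4 (0.23, adjusted p = 0.318). Of all 17097 genes, 2051 were under that limit in this comparison. By exact permutation of the 2 recipient groups alone, p was 0.0238 for Stat3, 0.151 for Socs1 and 0.143 for Stat4. The limma intervals and p-values use a spread shared by all 5 groups. On Socs1 the SD was 0.50 in Th1 and 0.40 in Th17 recipients, against 0.11 in naive wild-type mice and 0.06 in naive mice labelled Act1 ko. Without Th1 recipient 2, Stat4 (0.33, adjusted p = 0.0272) and Socs1 (0.61, adjusted p = 0.0186) passed, and without Th17 recipient 1, Stat3 did (0.36, adjusted p = 0.0261). Without Th1 recipients 4 and 5, the differences of Stat6, Socs2 and Cish were -0.13, -0.17 and -0.05, and none of the 3 was called. The rows of the sample code shared by both groups held a single array of each. Stat3 (0.07 to 0.29), Stat4 (0.28 to 0.31) and Socs1 (0.08 to 0.66) were higher in Th17 recipients in 3 of 3 rows. Cish was higher in 0 of 3, with differences of -0.29 to -0.01.

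Of the receptor chains 2 of 22 and of the ligands 1 of 17 were called higher with Th17 cells than with Th1 cells, and none lower. Il6 was 0.98 higher (SE 0.19, adjusted p = 0.00299), Osmr 0.62 (adjusted p = 0.0183) and Il6st, which encodes gp130, 0.35 (adjusted p = 0.0122). Il6st did not differ from naive mice in Th1 recipients at the threshold (0.08, adjusted p = 0.496) and was 0.43 above them in Th17 recipients. Other ligands and receptor chains of the IL-6 group were not called, with 0.23 for Il6ra (adjusted p = 0.749), 0.07 for Lifr (adjusted p = 0.888), -0.01 for Lif (adjusted p = 0.992) and -0.02 for Il11 (adjusted p = 0.988). Ptpn2 was the only other inhibitor called (0.49, adjusted p = 0.00498), and none of the 9 other JAK, STAT and SOCS genes was called, with 2 at an unadjusted limma p under 0.05. Without Th1 recipients 4 and 5, Osmr was not called (0.40, adjusted p = 0.285) and the receptor chain called beside Il6st was Csf3r (0.96, adjusted p = 0.00126), which is also a neutrophil marker.

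Of 9 STAT3 targets measured, 7 were called higher with Th17 cells than with Th1 cells, with a median of 0.76 against 0 over all genes. They were Lrg1 (2.39, SE 0.28), Bcl3 (1.46), Timp1 (1.16, SE 0.13), Junb (0.81), Cebpd (0.76), Lcn2 (0.70) and Osmr, while Pim1 (0.25) and Gfap (0.14) did not pass. Without Th1 recipients 4 and 5, 6 of 9 passed. The neutrophil and macrophage markers given above moved with these targets as well. Of 10 targets of STAT2 with IRF9, 3 were higher in Th17 recipients (Mx1 0.79, Rsad2 0.78 and Oas2 0.70), and without Th1 recipients 4 and 5 there were 0. Of 8 STAT4 targets Il18rap was higher (1.05, adjusted p = 2.4e-06), and of 5 STAT5 targets none passed, with 0 at an unadjusted limma p under 0.05. Of 9 STAT6 targets Arg1 was higher (0.68, adjusted p = 0.0133). Without Th1 recipients 4 and 5 Arg1 was not called and 2 STAT6 targets, named after their values were seen, were lower in Th17 recipients: Mrc1 (-1.87, against -1.14 with all arrays) and Chil3 (-0.67, against -0.32).

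**Figure D4:**
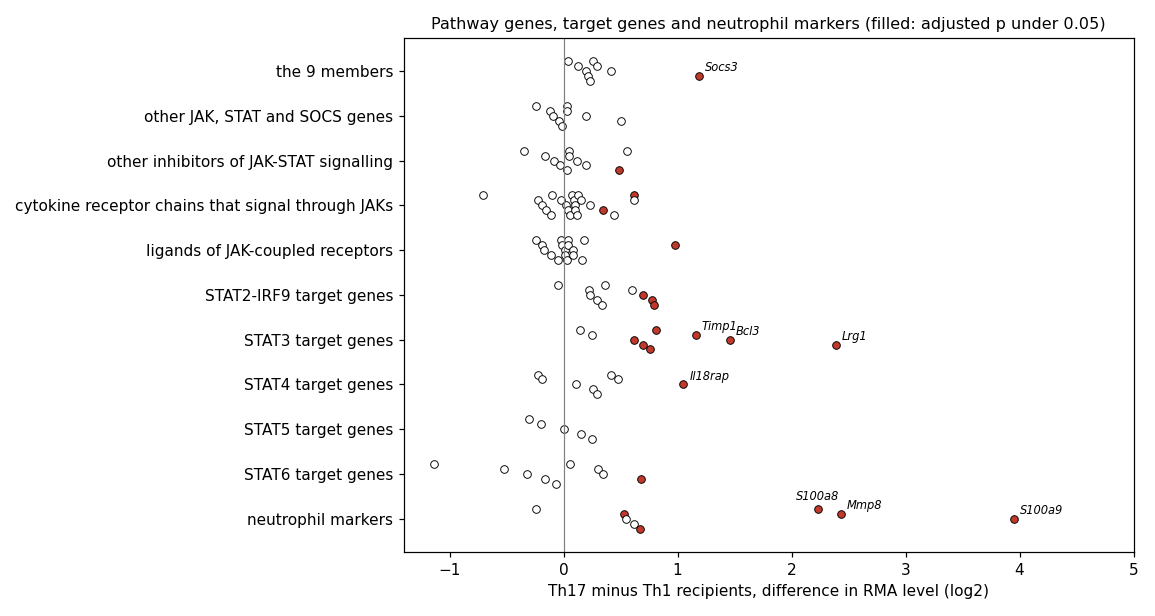
Difference in RMA level (log2) between Th17 and Th1 recipients for each member, each gene of the pathway and target lists and each neutrophil marker, 1 point per gene, filled where the adjusted p is under 0.05. Among the members, Socs3 alone (1.19) is filled, beside 7 of 9 STAT3 targets and 5 of 8 neutrophil markers.

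The members were also compared by their whole pattern, as the root mean square (RMS) difference over the 24 arrays of values set relative to the naive wild-type mean. Stat3 and Stat4 were the most alike of the members (RMS 0.193). The member nearest to Socs1 was Stat4 (0.265), and Stat6 and Cish were nearest to each other (0.273). Socs3 was the member farthest from each of the other 8, and its own nearest member was Stat2 (RMS 1.13). Over all genes the nearest to Socs3 were Ccl12, a chemokine gene (0.275), and Klk8, a protease gene (0.295). Stat2 lay nearest to Pnp, an enzyme of purine breakdown, and Shisa5 (0.258 and 0.265), Stat3 to Mcl1, a survival factor, and Cndp2 (0.150 and 0.154), and Stat4 to Mknk2 and Arpc5 (0.153 and 0.162). Stat6 lay nearest to Naip5 and to Jak3, a gene of the pathway (0.216 and 0.233), and Socs1 to Runx3, a transcription factor of T cells, and Morrbid (0.266 and 0.271). Socs2 lay nearest to Tent5a and H6pd (0.305 and 0.348), Cish to Nek6 and 1600014C10Rik (0.150 and 0.162), and Jak2 to Myo9b and Rab5c (0.212 and 0.215). These distances shrink for genes with a small rise and a small spread, and they are given as a description.

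In mice labelled Act1 ko, no member differed between Th17 recipients and naive mice at the threshold. The differences ran from -0.26 (Socs1) to 0.14 (Stat6), and the 95% intervals of all 9 lay between -0.64 and 0.55. Over all genes 0 of 17097 were called (0%) with limma, with 1070 at an unadjusted p under 0.05, of which 0 were members. Socs3 read 3.11, 3.17, 2.65, 2.99 and 2.92 in naive mice labelled ko and 3.05, 2.71, 3.17 and 3.02 in the Th17 recipients labelled ko. Stat2 read 4.69, 4.87, 4.88, 4.53 and 4.80 and then 4.88, 4.64, 4.77 and 4.61. In both genes the 2 groups overlapped throughout.

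These recipients were irradiated and injected like the wild-type ones. T cell markers averaged 3.04 to 3.18 in them against 2.92 to 3.15 in naive mice labelled ko, monocyte and macrophage markers 3.27 to 3.44 against 3.30 to 3.43, and neutrophil markers 3.13 to 3.19 against 3.17 to 3.47. The infiltrate markers thus stayed with the members at the naive level, and their part in the result was not tested. Set against wild-type Th17 recipients, all 9 members were lower in the Th17 recipients labelled ko, with differences from -1.07 (Jak2) to -4.60 (Socs3). Of all 17097 genes 42.2% were called in this comparison, 3002 as lower and 4212 as higher. The difference of the Th17 response between the genotypes was called for all 9. It ran from -1.24 ± 0.20 for Jak2 (adjusted p = 1.54e-05) to -4.69 ± 0.20 for Socs3 (adjusted p = 1.6e-16). Of all genes 32.0% were called for this difference, 2365 as negative and 3114 as positive. Of the STAT targets, all 10 of STAT2 with IRF9 and all 9 of STAT3 had a smaller response in the mice labelled ko, as did 7 of 8 of STAT4, 2 of 5 of STAT5 and 6 of 9 of STAT6. Of the other pathway lists, 3 other JAK, STAT and SOCS genes, 6 other inhibitors, 16 receptor chains and 4 ligands had a negative difference of the responses that passed the test, and 1, 2, 1 and 0 had a positive one. For Socs5, which fell in wild-type recipients, the difference of the responses was positive (0.43, adjusted p = 0.00926). Within mice labelled ko, Socs5 did not pass the test (-0.12, adjusted p = 0.926).

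Naive mice of both genotypes did not differ in any member by limma, which called 0.585% of all genes (100) in this comparison. At an unadjusted limma p under 0.05 there were 1250 of all genes and 0 members. The differences ran from -0.13 (Stat2) to 0.36 (Socs2, 95% interval -0.12 to 0.83). Socs1 was the only member without overlap: it read 2.92 to 3.06 in naive mice labelled ko and 2.62 to 2.87 in naive wild-type mice, a difference of 0.23 (exact permutation p = 0.00794, adjusted p = 0.831 by limma). It also did not overlap between Th17 recipients labelled ko, at 2.61 to 2.87, and naive mice labelled ko, a difference of -0.26 (exact permutation p = 0.0159, adjusted p = 0.904 by limma). Both exact values are the smallest these group sizes allow. Groups without overlap were found for 1.76% of all genes in the first of these comparisons and for 1.50% in the second, the naive mice labelled ko are in both, and all of these Socs1 levels are below the array medians.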

How the data were processed

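Spinal cord RNA of 24 mice was hybridized to Affymetrix GeneChip HT-MG-430PM-96 arrays, 1 per mouse. The authors deposited log2 values for 45118 probe sets, summarised by RMA, with a version not given in the sources used here. Such normalization hides a shift of all genes in 1 group. Precision rests on the number of arrays, and a p-value refers to the spread from mouse to mouse. The limma fit takes that spread as shared by all 5 groups.

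The platform annotation named the probe sets (28898 with 1 symbol, 551 with several and 15669 unnamed here), and 17097 genes were represented by their single-symbol probe set with the highest mean. Group differences were fitted with limma 3.58.1 (R 4.3.3, lmFit and eBayes) on all 24 arrays in 1 model without a block, two-sided, with Benjamini-Hochberg adjustment over all genes and calls at an adjusted p under 0.05. Errors are SE of the fit, and intervals are 95%. Single members were also tested by exact permutation. The fit was tested on simulated data. Same-group arrays correlated at 0.986 to 0.997, and no arrays held equal values (smallest mean absolute difference 0.142).

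The members, lists and alternatives were chosen with earlier results of these data known. Named are all members, up to 4 genes per pathway or target list that had the smallest adjusted p there and those called against the list's direction, the 2 nearest genes of each member, and Traf3ip2. Other names were chosen after their values were seen. Alternatives covered probe sets, a filter on dim genes, array scaling, variance models, fits on the compared groups alone, blocks (replicate number, row or column of the title code), leaving out each array, the t-test named in the methods, an exact Mann-Whitney test and a 2-fold threshold. The column block cannot separate the column from Th1 transfer, since no column held Th1 recipients and another group. Promoter windows came from RefSeq (GRCm38.p6).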

Additional observations from a re-analysis of the deposited data

Results flagged for a closer look

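Of the 45 groups of member values examined, 2 held 1 array whose gap to the nearest of the others took up most of the range of its group, where chance alone gives about 1 in 20. The first was Th17 recipient 5 on Socs3, at 7.89 with the next array at 7.58. The second was naive wild-type mouse 4 on Cish, at 3.65 with the next at 3.23. Without Th17 recipient 5 the Socs3 difference between Th17 and Th1 recipients was 1.11.

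The response to Th17 cells differed between the genotypes for all 9 members by the interaction term of the fit. That term called 32.0% of all genes, 2365 as negative and 3114 as positive. The difference, Act1 ko minus wild type, was -2.61 for Stat2, -1.49 for Stat3, -1.52 for Stat4, -1.72 for Stat6, -1.85 for Socs1, -2.17 for Socs2, -4.69 for Socs3, -1.95 for Cish and -1.24 for Jak2.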

How the results depend on the processing

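Values of single members were recomputed under 43 settings, 2638 values in all, and 2627 kept their side of the threshold. Of the rest, 9 passed only in the alternative, 2 only in the fit reported, and none reversed while called; 41 values called in neither changed sign. The filter on dim genes kept 8548 genes and 4 members (Stat2, Stat3, Socs2 and Jak2), so the members called were 4 for Th17 and 4 for Th1 recipients against naive mice, 0 for Th17 against Th1 recipients, and 4 for both comparisons of Th17 recipients between genotypes; Socs3 was not tested there. With each array left out in turn, the members called between Th17 and Th1 recipients ranged from 1 to 3, and from 9 to 9 or 0 to 0 elsewhere. By the methods' t-test without adjustment, and likewise by the exact Mann-Whitney test without adjustment, 2 members were called between Th17 and Th1 recipients (Stat3 and Socs3), 1 between naive mice of the 2 genotypes and 1 between Th17 recipients and naive mice labelled Act1 ko (both Socs1). Of all 17097 genes the unadjusted t-test called 1843, 1126 and 707 in these comparisons, in that order. The unadjusted Mann-Whitney test called 1406, 857 and 524. After Benjamini-Hochberg adjustment the Mann-Whitney test called 0 between Th17 and Th1 recipients; over all genes it called 0 and the t-test 69, against 513 by limma, and between naive mice of the 2 genotypes 0 and 11 against 100. Neither test has a form for the difference of responses. With a 2-fold threshold Jak2 was lost in Th1 recipients. Replicate numbers did not pair the mice (deviations of same-numbered arrays correlated at -0.29 to 0.44, median 0.04), and with the replicate block the members called were 9, 9, 1, 0, 0, 9 and 9, as without it. The Socs3 difference between Th17 and Th1 recipients stayed between 1.06 and 1.32 over the limma fits, with a largest adjusted p of 0.00123.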
